A study of Danio rerio with 16 samples.

Results

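Genes of the inflammatory response were followed in larvae with and without a functional glucocorticoid receptor (GR). The 10 zebrafish genes il1b, cxcl8a, tnfrsf1b, nfkbiaa, socs3a, irg1l, mmp9, mmp13a, mpx and lyz were chosen by name as inflammatory signals, their inhibitors and effectors of neutrophils. All 10 were found among the 22994 genes of the deposited table. RNA came from 16 pools of 8 whole larvae of the AB background, collected at 5 days post fertilization (dpf). Parents carried GR369-, a CRISPR frameshift allele of nr3c1 (the gene of the GR) kept as 1 mutant line, and a pigment response that depends on the GR, visual background adaptation (VBA), was used to sort the larvae. Larvae sorted as VBA- were taken to be homozygous for GR369-, and those sorted as VBA+ to be their siblings, wild type and heterozygous together. From about 4 hours post fertilization they developed in medium with 1 uM cortisol or with the vehicle DMSO, which gave 4 groups with 4 libraries each: VBA+ vehicle, VBA- vehicle, VBA+ cortisol and VBA- cortisol. Each condition had its own dish, from which all its pools were drawn, and its own place in the sequence of collection. Neither dish nor order can be told apart from condition, and p-values measure only the spread between pools.

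When tissue is damaged or infected, NF-kB transcription factors switch on cytokines such as interleukin 1 beta and the chemokine that draws in neutrophils, and the same factors switch on inhibitors that close the circuit. Cytokine receptors of the JAK-STAT pathway induce SOCS proteins, which block the receptors that induced them. Cortisol acts through the GR and, as the paper states, also through the mineralocorticoid receptor. The GR is a nuclear receptor that can raise inhibitors of inflammation and hold back cytokine genes.

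Values are normalized counts, which the authors had brought to the same distribution in every library. The sum was 14653434 in each of the 16 libraries, so that the depth of a library is unknown and counting error cannot be given. Fold changes are on the scale of log2(normalized count + 0.1), with standard errors (SE) and adjusted p-values from limma. To be called, a gene needed an adjusted p no higher than 0.05, a log2 fold change of 0.5 or more in size, an SE under 1 and 75 or more normalized counts on average. All 10 genes passed the filter for testing, a mean of at least 5 normalized counts. Of them 7 reached the mean of 75. The other 3, il1b (mean 5.25), cxcl8a (26.8) and mmp13a (28.2), were low-count genes that could not be called whatever their difference. In whole larvae, fewer cells of a type and less RNA per cell cannot be told apart.

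The mutated gene and a GR target were read first. Transcripts of nr3c1 lay between 580 and 772 normalized counts in the 8 VBA+ libraries and between 228 and 643 in the 8 VBA- libraries. For fkbp5, a direct target of the GR, the VBA+ libraries held 342 to 711 normalized counts. Of the VBA- libraries, 3 in each treatment held 10 to 123, whereas the libraries numbered 1 held 420 in vehicle and 494 in cortisol. The libraries labelled VBA- and numbered 1 thus lay in the VBA+ range for fkbp5. For nr3c1, VBA- cortisol 1 (592) and VBA- vehicle 3 (643) lay in the VBA+ range, and VBA- vehicle 1 (511) below it. VBA- vehicle 3 held 63 normalized counts of fkbp5. Whether the VBA- pools numbered 1 held VBA+ larvae was not tested. For the 10 genes, differences that involve VBA- larvae are given with and without the VBA- libraries numbered 1. Values of other genes and of gene lists always include these libraries. In VBA- cortisol nr3c1 itself read 592, 412, 352 and 228 in replicates 1 to 4. The libraries of that group also resembled each other least, with a lowest correlation across genes of 0.8625 between 2 of them, against lowest values of 0.9534 to 0.9739 in the other groups.

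Of the 10 genes, only socs3a was called, and in a single comparison, cortisol against vehicle in VBA+ larvae. In that comparison 8.22% of all 21686 tested genes were called, 3.60% as higher in cortisol. None of the 10 was called for VBA- against VBA+ in vehicle, where 0.235% of all genes were called. In cortisol no gene at all was called between genotypes, nor for cortisol against vehicle in VBA- larvae (0% in each). At an unadjusted p under 0.05 these last comparisons held 1701 (7.84%) and 389 (1.79%) genes, 2 and 1 of them among the 10. By the same limit VBA- against VBA+ in vehicle held 3032 genes (14%), 3 of them among the 10. Cortisol in VBA+ held 7511 (34.6%), also with 3 of the 10. For the interaction, which asks whether cortisol acted differently in VBA- and VBA+ larvae, 0.00461% of genes (1 gene) was called and none of the 10. The median log2 fold change of the 10 genes was 0.17 for VBA- against VBA+ in vehicle, -0.02 for the same in cortisol, 0.07 for cortisol in VBA+ and 0.00 for cortisol in VBA-, beside medians over all genes of -0.02, 0.00, -0.01 and -0.01. Members with positive and negative values stand behind each of these medians, and no test was made of the group.

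**Figure D1:**
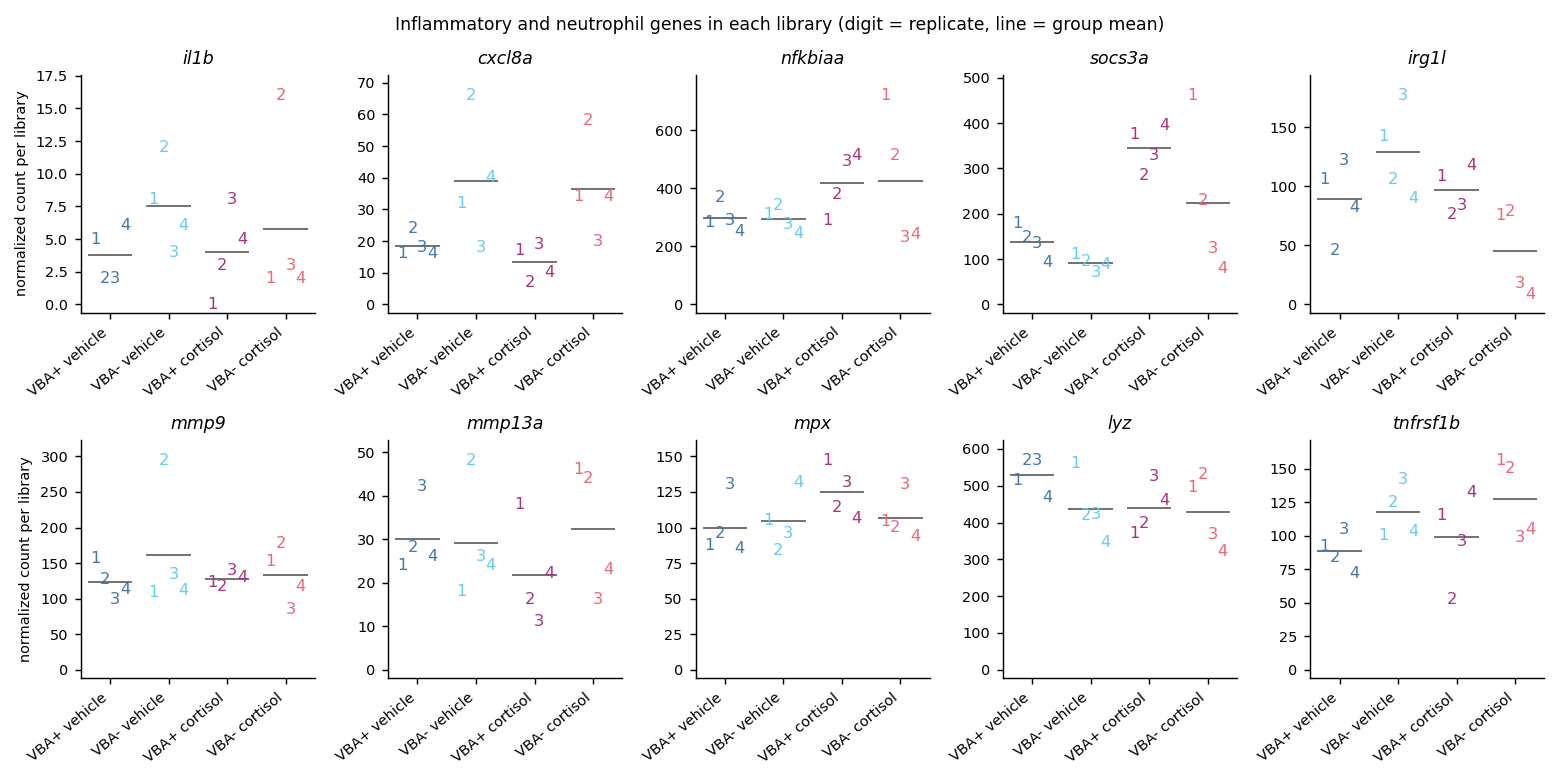
Normalized counts (vertical axis, linear) of the 10 genes in each of the 16 libraries, by group (horizontal axis). Each digit is the replicate number of a library and each line a group mean. The 4 VBA+ cortisol libraries of socs3a (284 to 394) lie above all 4 VBA+ vehicle libraries (92 to 178), and the VBA- cortisol libraries spread from 80 to 461.

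Among the signals, il1b, the gene of the cytokine interleukin 1 beta, was close to the floor of the measurement. It held 5, 2, 2 and 6 normalized counts in VBA+ vehicle, 8, 12, 4 and 6 in VBA- vehicle, 0, 3, 8 and 5 in VBA+ cortisol and 2, 16, 3 and 2 in VBA- cortisol. The groups overlapped in every comparison. For cortisol in VBA+ the log2 fold change was -0.86 ± 1.32 (SE, 4 against 4 libraries, adjusted p = 0.669), and with 1 in place of 0.1 added to the counts it was -0.20. Without the library at 0 it was 0.56, so that this library set its sign. VBA- against VBA+ gave 1.04 ± 0.62 in vehicle and 1.03 ± 1.42 in cortisol, and cortisol in VBA- -0.87 ± 0.76. Without the VBA- libraries numbered 1 these were 0.97, 1.32 and -0.51. No difference in il1b was detectable at these levels.

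The chemokine cxcl8a, which attracts neutrophils, was low too, and its highest levels were in VBA- larvae. VBA+ libraries held 16, 24, 18 and 16 normalized counts in vehicle and 17, 7, 19 and 10 in cortisol. VBA- libraries held 32, 66, 18 and 40 in vehicle and 34, 58, 20 and 34 in cortisol. Of the 8 VBA- libraries 6 exceeded the highest VBA+ library, and in cortisol all 4 lay above all 4 VBA+ libraries. Groups that do not overlap, higher in VBA-, were found in 2.41% of all genes in that comparison and in 1 of the 10. The log2 fold change of VBA- against VBA+ was 1.46 ± 0.42 in cortisol (95% interval 0.51 to 2.42, adjusted p = 0.539) and 0.94 ± 0.37 in vehicle (0.13 to 1.75, adjusted p = 0.303). These did not pass the adjusted test. Without the VBA- libraries numbered 1 they were 1.46 and 0.99. Cortisol itself gave -0.57 ± 0.36 in VBA+ and -0.05 ± 0.44 in VBA- (-0.09 without both VBA- libraries numbered 1), neither past the test, and the interaction was 0.52 ± 0.58.

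A receptor of tumor necrosis factor, tnfrsf1b, ranged from 52 to 132 normalized counts in VBA+ libraries and from 99 to 156 in VBA- libraries. Group means were 88.2 in VBA+ vehicle, 117 in VBA- vehicle, 98.8 in VBA+ cortisol and 127 in VBA- cortisol. VBA- against VBA+ gave a log2 fold change of 0.41 ± 0.17 in vehicle (adjusted p = 0.322) and 0.42 ± 0.30 in cortisol (adjusted p = 0.593), with overlapping groups in both. Cortisol gave 0.09 ± 0.26 in VBA+ and 0.10 ± 0.21 in VBA-. Without the VBA- libraries numbered 1 the genotype differences were 0.48 and 0.31, and the value for cortisol in VBA- was -0.08.

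The inhibitor socs3a, a SOCS protein that shuts off cytokine receptors signalling through STAT3, carried the clearest difference. VBA+ vehicle libraries held 178, 148, 134 and 92 normalized counts and VBA+ cortisol libraries 374, 284, 328 and 394. The groups did not overlap, with cortisol higher, which held for 8.44% of all genes tested. The gene rose 2.55-fold (95% interval 1.90 to 3.42), or by 1.35 ± 0.19 on the log2 scale (SE, 4 against 4 libraries, adjusted p = 0.00813). Over the alternative fits the value ran from 1.01 to 1.69 and the adjusted p from 0.00573 to 0.129. It stayed called without any single library, and it lost its call in 3 fits: with all 16 libraries in the fit (adjusted p = 0.129), with a replicate block (adjusted p = 0.0773) and on replicates 3 and 4 alone (1.69, adjusted p = 0.0736).

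In VBA- larvae the socs3a libraries were 111, 94, 70 and 87 in vehicle and 461, 230, 124 and 80 in cortisol. Replicate 1 in cortisol exceeded every VBA+ library, while replicate 4 lay among the vehicle libraries. The log2 fold change of cortisol was 1.01 ± 0.47 (95% interval -0.05 to 2.07, adjusted p = 1). It was 0.66 ± 0.38 without both VBA- libraries numbered 1. Against VBA+, socs3a in VBA- was at -0.59 ± 0.21 in vehicle (adjusted p = 0.276) and -0.93 ± 0.46 in cortisol (adjusted p = 0.591), or -0.69 and -1.38 without the library numbered 1, and neither passed. The interaction was -0.34 ± 0.55 (95% interval -1.50 to 0.82, adjusted p = 0.836), so that a different cortisol effect in the 2 genotypes was not shown. The order of the VBA- cortisol libraries for socs3a was also that for nr3c1 and for fkbp5, which read 494, 123, 101 and 10. These libraries differed widely across genes (lowest correlation 0.8625), and how common this order is among all genes was not tested. The part of these libraries' GR target level in the socs3a result was not tested.

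**Figure D2:**
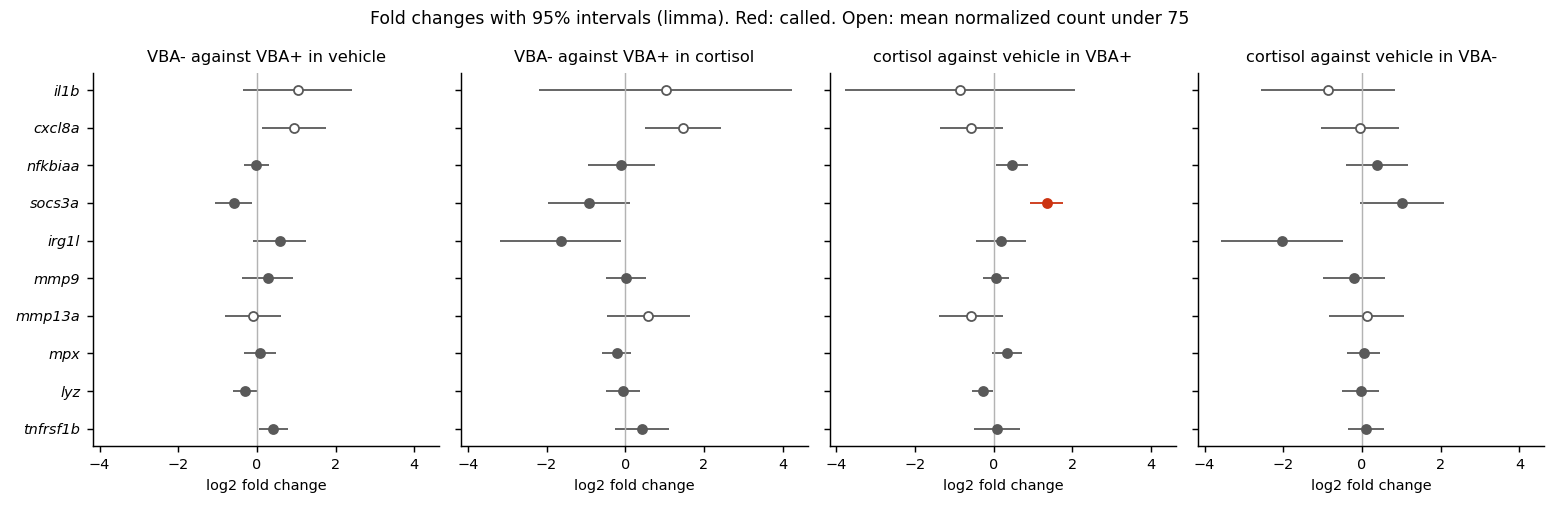
Log2 fold changes (horizontal axis) of the 10 genes in the 4 pairwise comparisons, 4 against 4 libraries each. Points are limma estimates and bars 95% intervals, red marks a called gene and open points the low-count genes. For socs3a under cortisol in VBA+ the interval is 0.93 to 1.77, and for il1b the intervals are the widest.

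The gene nfkbiaa encodes I-kappa-B alpha, which holds NF-kB in the cytoplasm and is itself an NF-kB target. It held 282, 368, 288 and 250 normalized counts in VBA+ vehicle, 310, 340, 276 and 245 in VBA- vehicle, 288, 378, 492 and 514 in VBA+ cortisol and 720, 514, 231 and 240 in VBA- cortisol. The vehicle groups lay on top of each other, with a VBA- against VBA+ difference of -0.02 ± 0.14 (95% interval -0.33 to 0.30 on the log2 scale). Under cortisol VBA+ larvae gave 0.47 ± 0.19 (adjusted p = 0.106) and VBA- larvae 0.38 ± 0.35 (adjusted p = 1), and neither passed. Without both VBA- libraries numbered 1 the value in VBA- was 0.10 ± 0.33, and the vehicle difference was -0.05 without VBA- vehicle 1.

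The sign of the genotype difference for nfkbiaa in cortisol depended on which libraries were used. By replicate number, VBA- was above VBA+ in replicates 1 and 2 and below it in replicates 3 and 4. Neither labels nor methods say that same-numbered libraries were paired, so that this is no genotype order per replicate. Over all replicates the log2 fold change was -0.11 ± 0.38 (adjusted p = 0.904). Without VBA- cortisol 1 it was -0.42 ± 0.32. On replicates 1 and 2 alone it was 0.88 (limma adjusted p = 0.0222) and on replicates 3 and 4 alone -1.09 (limma adjusted p = 0.0470). These sets were chosen after seeing the data and restate the order of these libraries, so that neither p-value shows a difference.

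For irg1l, a relative of the mammalian gene whose enzyme makes itaconate in activated macrophages, the low values were in 2 VBA- cortisol libraries. VBA+ libraries held 106, 46, 122 and 82 normalized counts in vehicle and 108, 76, 84 and 118 in cortisol. VBA- libraries held 142, 106, 177 and 90 in vehicle and 75, 79, 18 and 8 in cortisol. The highest VBA- cortisol library was below the lowest VBA- vehicle library, as in 0.839% of all genes and 1 of the 10. The log2 fold change was -2.03 ± 0.69 (95% interval -3.57 to -0.48, unadjusted p = 0.0157 and adjusted p = 1 in limma), and -2.40 without both VBA- libraries numbered 1. It did not pass the adjusted test. On replicates 1 and 2 alone it was -0.67 and on replicates 3 and 4 alone -3.38. VBA- against VBA+ gave 0.57 ± 0.31 in vehicle and -1.64 ± 0.68 in cortisol (adjusted p = 0.436 and 0.591), or 0.51 and -2.07 without the library numbered 1. In VBA+ larvae cortisol gave 0.18 ± 0.28, and the interaction was -2.21 ± 0.80 (adjusted p = 0.726).

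**Figure D3:**
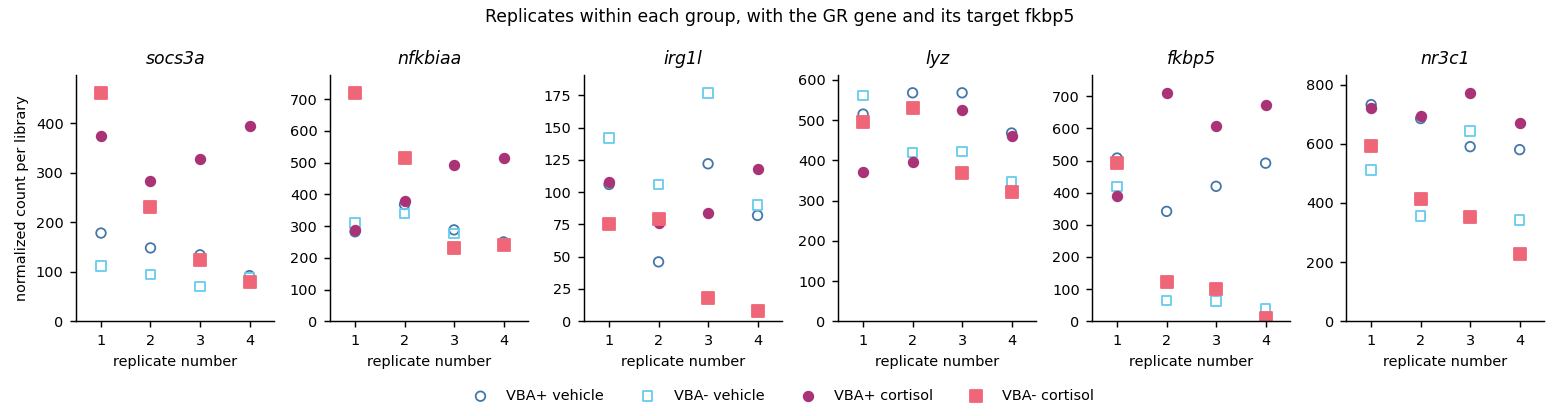
Normalized counts (vertical axis, from 0) of 4 of the genes and of fkbp5 and nr3c1 by replicate number (horizontal axis, a name without order). Circles are VBA+ and squares VBA- libraries, open in vehicle and filled in cortisol. VBA- cortisol libraries run from 461 to 80 for socs3a and from 494 to 10 for fkbp5.

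Of the matrix metalloproteinases, which cut extracellular matrix and are made in wounded or inflamed tissue, neither was called. The gelatinase mmp9 ranged from 99 to 157 normalized counts in VBA+ libraries and from 85 to 294 in VBA- libraries, the highest in replicate 2 of VBA- vehicle. Its log2 fold changes were 0.27 ± 0.30 for VBA- against VBA+ in vehicle, 0.01 ± 0.22 in cortisol, 0.05 ± 0.15 for cortisol in VBA+ and -0.21 ± 0.35 for cortisol in VBA-. Without the VBA- libraries numbered 1 the 3 that involve VBA- were 0.42, -0.07 and -0.44. The collagenase mmp13a was a low-count gene with 11 to 42 normalized counts in VBA+ and 16 to 48 in VBA- libraries. VBA- against VBA+ gave -0.11 ± 0.32 in vehicle and 0.58 ± 0.47 in cortisol (adjusted p = 0.610), cortisol gave -0.58 ± 0.37 in VBA+ (adjusted p = 0.288) and 0.12 ± 0.43 in VBA-, and the interaction was 0.69 ± 0.59. Without the VBA- libraries numbered 1 the genotype differences were 0.09 and 0.37 and the value for cortisol in VBA- was -0.29.

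The neutrophil effectors gave small differences. Myeloperoxidase, mpx, an enzyme of neutrophil granules, had group means of 99.5, 104, 125 and 107 normalized counts in VBA+ vehicle, VBA- vehicle, VBA+ cortisol and VBA- cortisol. Cortisol in VBA+ gave a log2 fold change of 0.34 ± 0.17 (95% interval -0.04 to 0.71, adjusted p = 0.182) and in VBA- 0.05 ± 0.19 (-0.37 to 0.47). Lysozyme, lyz, which digests bacterial walls and is found in neutrophils and some macrophages, had group means of 529.8, 437, 438 and 429. VBA+ vehicle thus had the highest mean, and cortisol in VBA+ gave -0.28 ± 0.12 (-0.55 to -0.01, adjusted p = 0.130). The pair pointed in opposite directions under cortisol in VBA+ and neither passed. VBA- against VBA+ gave 0.07 ± 0.18 for mpx and -0.29 ± 0.14 for lyz in vehicle, and -0.22 ± 0.17 and -0.05 ± 0.19 in cortisol. Cortisol in VBA- gave -0.04 ± 0.20 for lyz. Without the VBA- libraries numbered 1, mpx was at 0.06 and -0.21 between genotypes and 0.07 for cortisol in VBA-, and lyz at -0.42, -0.13 and 0.01.

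Other genes of these pathways were read from lists of family members. For cortisol in VBA+, 19 of 24 tested JAK-STAT and SOCS genes were higher and 5 lower, with a median log2 fold change of 0.21. Of all genes, 48.8% had a positive value in that comparison, and no test was made of such counts. Of the 24, 3 were called, all of them higher. They were socs1a (0.88 ± 0.24, adjusted p = 0.0380), which blocks JAK kinases, stat5a (0.77 ± 0.23, adjusted p = 0.0490), a transcription factor downstream of hormone and cytokine receptors, and socs2 (0.66 ± 0.12, adjusted p = 0.0135), which restrains growth hormone signalling. Of 14 cytokines and receptors 1 was called, il6st, as higher (0.63 ± 0.14, adjusted p = 0.0226), the shared receptor chain of the interleukin 6 family. The median of that list was -0.15, with 6 genes higher and 8 lower. Of 29 NF-kB genes 1 was called, irak4, as lower (-0.83 ± 0.23, adjusted p = 0.0422), a kinase of Toll-like receptor signalling. It went against its list, which had a median of 0.12, with 21 genes higher and 8 lower. Of 14 metalloproteinases and inhibitors 1 was called, mmp24, as higher (0.63 ± 0.19, adjusted p = 0.0495). That list had a median of 0.26, with 9 genes higher and 5 lower. The mean of 75 needed for a call was reached by 21, 8, 23 and 7 genes of these lists, in the order given. Among all 21686 genes 13772 reached it. With 8.22% of all genes called in this comparison (3.60% higher, 4.63% lower), these shares are read against that background only. No gene of these 4 lists was called in the other pairwise comparisons or for the interaction.

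Markers of the cells that could carry these genes were read beside them. Of 16 matched neutrophil markers 1 was called for cortisol in VBA+, itgb2 (0.56 ± 0.15, adjusted p = 0.0358), a leukocyte integrin chain, and the list's median was 0.08. Summed neutrophil marker levels ran from 2449 to 2847 normalized counts in VBA+ vehicle, 2540 to 3051 in VBA- vehicle, 2368 to 2949 in VBA+ cortisol and 2189 to 3685 in VBA- cortisol, and overlapped in all 4 groups. Of 18 tested macrophage markers 1 was called higher in VBA+ cortisol, csf1ra (0.69 ± 0.14, adjusted p = 0.0191), the receptor of a macrophage growth factor that pigment cells also use. The median over the macrophage list was 0.03, with 10 markers higher and 8 lower, and its summed level, 16369 to 17367 in VBA+ vehicle and 14871 to 16314 in VBA+ cortisol, was mostly the gene apoeb (-0.15 ± 0.06, adjusted p = 0.128). Of 7 lymphocyte markers 1 was called higher, rag1 (0.66 ± 0.19, adjusted p = 0.0434), and the list had 6 higher and 1 lower. Of 8 erythroid markers 1 was called lower, hbae1.3 (-0.73 ± 0.15, adjusted p = 0.0175), and that list had 2 higher and 6 lower. Of 19 epidermal markers 4 were called lower in VBA+ cortisol, icn2 (-1.15 ± 0.23, adjusted p = 0.0170), anxa1a (-0.73 ± 0.19, adjusted p = 0.0342), icn (-0.70 ± 0.18, adjusted p = 0.0309) and anxa1c (-0.61 ± 0.11, adjusted p = 0.0130). The list's median was -0.32, with 14 markers lower, 4 higher and the rest with equal group means. Its summed levels were 547990 to 589009 in VBA+ vehicle and 392935 to 554415 in VBA+ cortisol, overlapping slightly. Of the tested markers, 9 neutrophil, 6 macrophage, 2 lymphocyte, 7 erythroid and 19 epidermal genes reached the mean of 75 needed for a call. All these shares of called markers are read only against the 8.22% of all genes called for cortisol in VBA+ (3.60% higher, 4.63% lower). That background has its own mix, with 13772 of 21686 genes at that mean, so that the shares are not directly comparable. For VBA- against VBA+ the epidermal list had a median of 0.29 in vehicle (14 markers higher, 2 lower) and 0.50 in cortisol (17 higher, 1 lower). Of all genes, 46.7% had a positive value in vehicle and 50.2% in cortisol. In each treatment the rest of the 19 markers had equal group means. Every library had been brought to the same distribution, so that genes holding the same rank in every library have equal means by construction. Equal means, here and for cortisol in VBA+, are thus no evidence of unchanged levels. Of the list's genes 1 was called, cdh1 in vehicle (0.86 ± 0.12, adjusted p = 0.0309), the cadherin that joins epithelial cells. These epidermal values lay in the same direction as cxcl8a and tnfrsf1b. So did the lymphocyte list, with medians of 0.69 in vehicle and 0.13 in cortisol and 5 markers higher and 2 lower in each. Of the pathway lists, cytokines and receptors (0.25 and 0.20) and metalloproteinases and inhibitors (0.37 and 0.21) did so too. The NF-kB (0.09 and -0.08) and JAK-STAT and SOCS lists (0.06 and -0.09) changed sign. Medians of the neutrophil (0.07 and -0.06), macrophage (0.04 and -0.12) and erythroid lists (-0.04 and 0.05) changed sign between vehicle and cortisol. None of the matched markers was at 0 in all libraries. The part of these cell types in the results for socs3a, cxcl8a and tnfrsf1b was not tested.

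Within groups several of the genes varied together from library to library. Over the 16 libraries, as deviations from group means, Pearson's r was 0.80 for nfkbiaa and socs3a, 0.79 for nfkbiaa and lyz and 0.75 for socs3a and irg1l. Of the 45 pairs 12 had an r over 0.5 and 1 an r under -0.5, mmp9 and mpx (-0.61). These values describe the same 16 libraries, share their normalization and include the widely spread VBA- cortisol libraries.

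**Figure D4:**
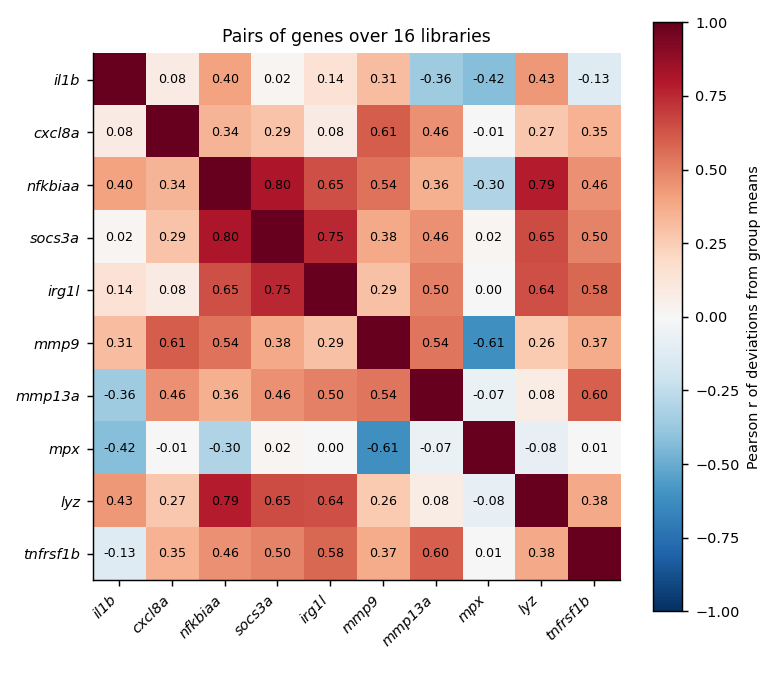
Pearson's r between each pair of the 10 genes over 16 libraries, computed on deviations of log2 levels from group means (color scale from -1 to 1, no test). The highest value is 0.80 for nfkbiaa and socs3a and the lowest -0.61 for mmp9 and mpx.

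Among 13529 genes with a symbol and a mean of at least 75, the one most like socs3a by this measure was ddit4 (r = 0.91), a stress gene that restrains mTOR signalling and a known target of the GR in mammals. It held 350, 326, 244 and 255 normalized counts in VBA+ vehicle and 406, 410, 494 and 580 in VBA+ cortisol, without overlap, and rose by a log2 fold change of 0.69 ± 0.15 (adjusted p = 0.0230). Groups without overlap, higher in cortisol, were found in 8.44% of all genes, and 3.60% were called higher. In VBA- cortisol ddit4 read 576, 379, 225 and 164, the same order of libraries as socs3a. The gene was picked by its r over these libraries, so that the shared order is no separate evidence. After ddit4 came rnaseh2b and hells (both 0.90), which went the other way for cortisol in VBA+. Their log2 fold changes were -0.58 ± 0.11 (adjusted p = 0.016, called) and -0.38 ± 0.10 (adjusted p = 0.033, not called). A high r within groups thus did not always go with the same change between groups. Closest to nfkbiaa were si:ch211-7c8.2 (0.97), ung (0.96) and mrpl48 (0.95). These were called lower for cortisol in VBA+ (-0.74, -0.92 and -0.60), whereas nfkbiaa was at 0.47 and not called. Closest to irg1l were caspbl (0.95), nubp1 and ctsh (both 0.94), and to lyz psmd5 (0.95), cox7b and si:dkey-31c13.1 (both 0.93). For mmp9 they were gpn1 (0.91), prrc1 and nrm (both 0.89), for tnfrsf1b tomm70 (0.91), dennd10 (0.87) and mapk14 (0.85), and for mpx ssh2b (0.81), kansl1 (0.77) and rad50 (0.76).

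The count of called genes for VBA- against VBA+ in vehicle was 51, and 195 with replicate number as a block. Same-numbered libraries deviated together there (correlations of 0.212 to 0.309), but neither labels nor methods say that they were paired. None of the 10 genes was called with the block either. Without both VBA- libraries numbered 1 the interaction values given above were 0.48 for cxcl8a, -0.69 for socs3a, -2.58 for irg1l and 0.28 for mmp13a, none of them called.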

How the data were processed

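RNA-seq of 16 pools of larvae was analysed. The authors trimmed reads with Trimmomatic, aligned them to GRCz11 with STAR 2.6.1b and estimated gene levels with RSEM 1.3.0, per the labels and methods. They normalized these with EDASeq for GC content within libraries and by full quantiles between them. The deposited values are log2(normalized count + 0.1), and the authors' DESeq2 test of counts could not be run on them. Here limma 3.58.1 in R 4.3.3 (lmFit, eBayes with trend) was used, with Benjamini-Hochberg adjustment over the 21686 genes that averaged 5 or more normalized counts. Pairwise comparisons used their 8 libraries and the interaction all 16. In simulated data limma recovered 95% of genes changed by a log2 of 1 for each pairwise comparison except cortisol in VBA- (92%), and 87% for the interaction. The simulated noise was set smaller than the observed spread between pools, which was itself pooled over all groups. Changed genes were drawn only from those with a mean of at least 75. These shares check the code and do not give the power of the real comparisons. Figures used matplotlib 3.10.9 in Python 3.11.15.

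Genes were matched by symbol. The ID of mpx is named in a supplementary gene list of the study, and that of socs3a was assigned as the other of 2 IDs listed as SOCS3, since the study names the first socs3b. The 10 genes and all lists were chosen with earlier results of these data known. Named besides the 10 are the 3 genes most correlated with each that reached a mean of 75, and all called genes of the lists. The genes nr3c1, fkbp5 and apoeb are named too. Matched list genes were 15 of 32 cytokines and receptors, 29 of 31 NF-kB, 25 of 30 JAK-STAT and SOCS, 14 of 30 metalloproteinase, 16 of 20 neutrophil, 19 of 20 macrophage, 8 of 13 lymphocyte, 8 of 13 erythroid and 19 of 20 epidermal genes. Replicate numbers are shared by the groups in the labels. Same-numbered libraries deviated together in VBA- against VBA+ in vehicle (correlations of 0.253, 0.212, 0.309 and 0.235, all over 0.1). For VBA- against VBA+ in cortisol they deviated in opposite directions (-0.601, -0.590, -0.449 and -0.625). Correlations were negative for cortisol in VBA+ too (-0.344, -0.094, -0.267 and -0.242). For cortisol in VBA- they were 0.288, 0.657, 0.078 and 0.670, not all over 0.1.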

Additional observations from a re-analysis of the deposited data

How the results depend on the processing

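Of the 10 genes, socs3a under cortisol in VBA+ was the only call, and it was lost with a replicate block (1.35, adjusted p = 0.0773, 0 of the 10 called), with all 16 libraries in the fit (1.35, adjusted p = 0.129, 0 called) and on replicates 3 and 4 only (1.69, adjusted p = 0.0736). The causes were not tested. Called genes in that comparison numbered 1783, against 3276 by adjusted p alone, 619 without the trend, 6 with the replicate block, 21 with all 16 libraries and 414 to 2925 without single libraries: 414, 440, 454 and 690 without VBA+ cortisol 2, VBA+ vehicle 1, VBA+ cortisol 1 and VBA+ vehicle 2, and 2925 without VBA+ cortisol 4. For VBA- against VBA+ in vehicle 51 genes were called, 8 with no filter, 1 without the trend, 195 with the replicate block, 363 with the first and last replicate pairs (1 and 2, 3 and 4) as a term, 16 with all 16 libraries and 1 to 63 without single libraries. In cortisol 0 were called between genotypes, 1 with that term, 10 with all 16 libraries and 0 to 2 without single libraries. For cortisol in VBA- 0 were called, 2 with the term and 5 with all 16 libraries. For the interaction 1 was called, and 0 with no filter, with size factors, with the replicate block, without both VBA- libraries numbered 1, and 0 to 1 without single libraries. Same-numbered libraries did not deviate together for cortisol in VBA+, and outside that comparison the block changed no call of the 10.

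Signs turned only for values that had not been called. Some sets of libraries were chosen after seeing the data. On replicates 1 and 2 only, VBA- against VBA+ gave 0.011 for nfkbiaa and 0.18 for mmp13a in vehicle and 0.88 for nfkbiaa and 0.42 for lyz in cortisol, and cortisol gave -0.24 for mmp9 and -0.18 for tnfrsf1b in VBA+ and 0.079 for lyz in VBA-. On replicates 3 and 4 only, VBA- against VBA+ in cortisol gave -1.33 for il1b, -0.44 for mmp9 and -0.14 for tnfrsf1b, and nfkbiaa passed the limits at -1.09. The value of 0.88 for nfkbiaa on replicates 1 and 2 only passed the same limits in the opposite direction. Cortisol on replicates 3 and 4 only gave 0.84 for il1b and -0.0067 for irg1l in VBA+. In VBA- it gave, on the same replicates, -0.14 for nfkbiaa, -0.38 for mmp13a, -0.026 for mpx and -0.25 for tnfrsf1b. Without both VBA- libraries numbered 1, cortisol in VBA- gave -0.29 for mmp13a, 0.0100 for lyz and -0.076 for tnfrsf1b, and the interaction 0.35 for il1b and -0.17 for tnfrsf1b. With size factors the interaction of tnfrsf1b was -0.0083.

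Leaving out single libraries turned signs within these ranges. For VBA- against VBA+ in vehicle they were -0.095 to 0.091 for nfkbiaa, -0.057 to 0.42 for mmp9, -0.38 to 0.085 for mmp13a and -0.051 to 0.20 for mpx. In cortisol they were -0.39 to 1.73 for il1b, -0.42 to 0.13 for nfkbiaa, -0.15 to 0.21 for mmp9 and -0.16 to 0.079 for lyz. For cortisol in VBA+ they were -1.56 to 0.56 for il1b, -0.10 to 0.37 for irg1l, -0.046 to 0.18 for mmp9 and -0.073 to 0.37 for tnfrsf1b. For cortisol in VBA- they were -0.37 to 0.26 for cxcl8a, -0.36 to 0.12 for mmp9, -0.10 to 0.41 for mmp13a, -0.051 to 0.17 for mpx, -0.15 to 0.092 for lyz and -0.0040 to 0.21 for tnfrsf1b. For the interaction they were -1.43 to 0.69 for il1b, -0.40 to 0.15 for nfkbiaa, -0.79 to 0.052 for socs3a, -0.42 to 0.070 for mmp9 and -0.27 to 0.18 for tnfrsf1b. Depth is unknown after the quantile step, so that no limit from counting can be given for il1b, cxcl8a or mmp13a.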
